A study of Mus musculus with 16 samples.

Results

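The genes described here are 10 genes of hepatic stellate cells and liver fibrosis, namely Col1a1, Col1a2, Col3a1, Timp1, Acta2, Des, Pdgfrb, Tgfb1, Dcn and Reln, out of 35275 gene identifiers in a table of gene expression of mouse liver. They were chosen by symbol, with 1 Ensembl identifier for each symbol, and all 10 passed the filter on low values that left 11298 genes for testing. RNA sequencing of liver RNA was available for 16 libraries in 4 groups of 4. The groups were wild-type (WT) mice on a control diet, WT mice on a diet with ethanol, and mice with a liver-specific knockout of Zfp36l1 (LKO) on each of the same diets. Zfp36l1 encodes an RNA-binding protein that attaches to AU-rich stretches in the 3′ untranslated regions of messenger RNAs and speeds their decay. The promoter that drove the deletion, the strain, sex and age of the mice and the length of feeding are not given in the labels used here, and the labels do not say that each library came from a separate animal. The series asks how loss of Zfp36l1 changes the fatty and inflamed liver that ethanol gives, and the comparison made here is how the fibrosis genes behaved across the 4 groups.

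Hepatic stellate cells lie between the sinusoidal endothelium and the hepatocytes and store vitamin A while quiescent. On injury they can turn into myofibroblast-like cells that contract, divide in response to platelet-derived growth factor and secrete fibrillar collagen, with transforming growth factor beta as the main known inducer of matrix production. The balance of matrix proteases and their inhibitors then sets how much collagen is kept. Chronic alcohol feeding of mice by itself is known to give steatosis with little scarring.

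Col1a1 and Col1a2 encode the chains of type I collagen, and Col3a1 encodes the chain of type III collagen, the fibrils that make up much of a liver scar. Timp1 encodes a secreted inhibitor of matrix metalloproteinases. Acta2 encodes smooth muscle alpha-actin and Des encodes desmin, an intermediate filament, and both are used to mark activated or contractile cells. Pdgfrb encodes the beta receptor for platelet-derived growth factor, and Tgfb1 encodes the transforming growth factor ligand. Dcn encodes decorin, a small proteoglycan that binds collagen fibrils, and Reln encodes reelin, a secreted glycoprotein used as a stellate cell marker.

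The 300-base promoter windows from RefSeq on GRCm38.p6, which span the start site, were matched for 7 members, which were Col3a1, Des, Reln, Col1a2, Tgfb1, Acta2 and Timp1. Those of Timp1 and Des are shown because these were the members that rose with ethanol in WT, and those of Col1a2 and Col3a1 because the fibrillar collagens varied together between libraries. Capitals mark matches, on either strand, to the letters TATAAA of the TATA box, CCAAT of the box named after them and GGGCGG of the GC box. They also mark TGAGTCA of the AP-1 site, CACGTG of the E-box and CCWWWWWWGG of the CArG box, where W is A or T. Only exact matches were counted. The windows lie at chrX:20869916-20870215 for Timp1, chr1:75360042-75360341 for Des, chr6:4505368-4505667 for Col1a2 and chr1:45311288-45311587 for Col3a1, all on the plus strand.
Timp1: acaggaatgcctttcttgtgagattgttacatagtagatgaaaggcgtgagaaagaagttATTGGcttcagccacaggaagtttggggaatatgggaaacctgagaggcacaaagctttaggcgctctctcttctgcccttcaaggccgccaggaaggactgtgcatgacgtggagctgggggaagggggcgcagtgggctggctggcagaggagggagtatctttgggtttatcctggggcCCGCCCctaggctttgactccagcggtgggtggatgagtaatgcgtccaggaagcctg
Des: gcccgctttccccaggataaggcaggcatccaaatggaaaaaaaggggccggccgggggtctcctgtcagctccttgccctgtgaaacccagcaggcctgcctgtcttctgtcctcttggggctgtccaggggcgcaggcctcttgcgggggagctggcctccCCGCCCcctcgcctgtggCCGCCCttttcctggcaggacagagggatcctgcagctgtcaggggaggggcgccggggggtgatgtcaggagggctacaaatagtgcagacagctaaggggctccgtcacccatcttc
Col1a2: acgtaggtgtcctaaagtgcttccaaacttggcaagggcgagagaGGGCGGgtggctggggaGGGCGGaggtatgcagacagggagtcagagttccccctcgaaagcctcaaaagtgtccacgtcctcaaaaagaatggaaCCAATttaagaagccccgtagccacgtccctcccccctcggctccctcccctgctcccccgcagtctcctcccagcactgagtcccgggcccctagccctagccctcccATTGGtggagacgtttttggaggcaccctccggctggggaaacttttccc
Col3a1: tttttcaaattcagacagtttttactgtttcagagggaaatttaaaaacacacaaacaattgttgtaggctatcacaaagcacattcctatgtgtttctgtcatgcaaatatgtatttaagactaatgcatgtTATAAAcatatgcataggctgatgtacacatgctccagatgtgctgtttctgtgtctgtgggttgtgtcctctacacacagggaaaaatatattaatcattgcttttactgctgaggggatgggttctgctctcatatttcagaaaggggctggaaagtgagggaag

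Positions are counted from the start site as position 1. The Col1a2 window held 2 CCAAT boxes and 2 GC boxes, with the CCAAT boxes at -109 to -105 on the plus strand and at 1 to 5 on the minus strand. The Timp1 window held 1 CCAAT box and 1 GC box, and the Des window held 2 GC boxes. The Col3a1 window held only 1 match, to the TATA box, at -117 to -112. Of the other windows, that of Reln held 6 GC boxes and 1 E-box, that of Tgfb1 held 6 GC boxes, and that of Acta2 held no match, which says only that these letters are not in this window. The Acta2 window does hold ccctatatgg and ccttgtttgg, each 1 base off the CArG letters, which were not counted. No 2 matches overlapped. Among 32851 promoter windows of the same length, 37.4% held a CCAAT box, 35.7% a GC box, 13.6% a TATA box, 7.2% an E-box, 5.2% an AP-1 site and 1.6% a CArG box.

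Because Zfp36l1 binds AU-rich sequence, the 3′ untranslated regions of the members' transcripts were searched for TATTTAT in the annotation GENCODE M21. Only that of Col3a1 held it, once, at chr1:45348836-45348865 on the plus strand, where the 30 bases around the match are shown with the match in capitals. The heptamer was present in 26.4% of 10418 tested genes whose 3′ untranslated region was annotated. A match to these letters is a description and no evidence of binding.
Col3a1 site: taaattccagtTATTTATttccaaactttt

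The libraries held 9890475 to 24768569 reads as recovered from the steps of the FPKM values, a fragment count scaled for gene length and library size. Zfp36l1 itself stood at 9.30 FPKM or more in every WT library and at 1.76 FPKM or less in every LKO library. WT ethanol library 2, with the lowest total, stood apart, with 22.5% of its reads from mitochondrial genes against 3.64% to 6.97% in the other 15. The median Spearman correlation of that library with the others across genes was 0.691, whereas no pair among the other 15 was below 0.858. The other 15 libraries, taken as deviations from their group means, were separated by their first principal component, with libraries 1 and 2 of every group at one end and libraries 3 and 4 at the other. The labels give no batch or date for this split, and its libraries are numbered here only in the order in which each group is listed. Results that turn on WT ethanol library 2 or on the split are given with and without them.

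By median FPKM over the 16 libraries, a scale that corrects for gene length, Dcn stood far above the others at 87.0. Then came Tgfb1 at 4.38, Reln at 2.74, Col3a1 at 2.42, Col1a2 at 1.51, Des at 1.45, Pdgfrb at 0.871, Col1a1 at 0.609, Acta2 at 0.508 and Timp1 at 0.237 FPKM. The ranges over libraries of all neighbours in this order overlapped, Dcn and Tgfb1 only through the Dcn value of WT ethanol library 2. Timp1 rested on very few reads, from 2 to 72 in a library, and Acta2 on 7 to 174. Timp1 reached 1 FPKM in only 4 libraries and Acta2 in only 5, and without the WT ethanol group neither would have passed the filter.

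**Figure D1:**
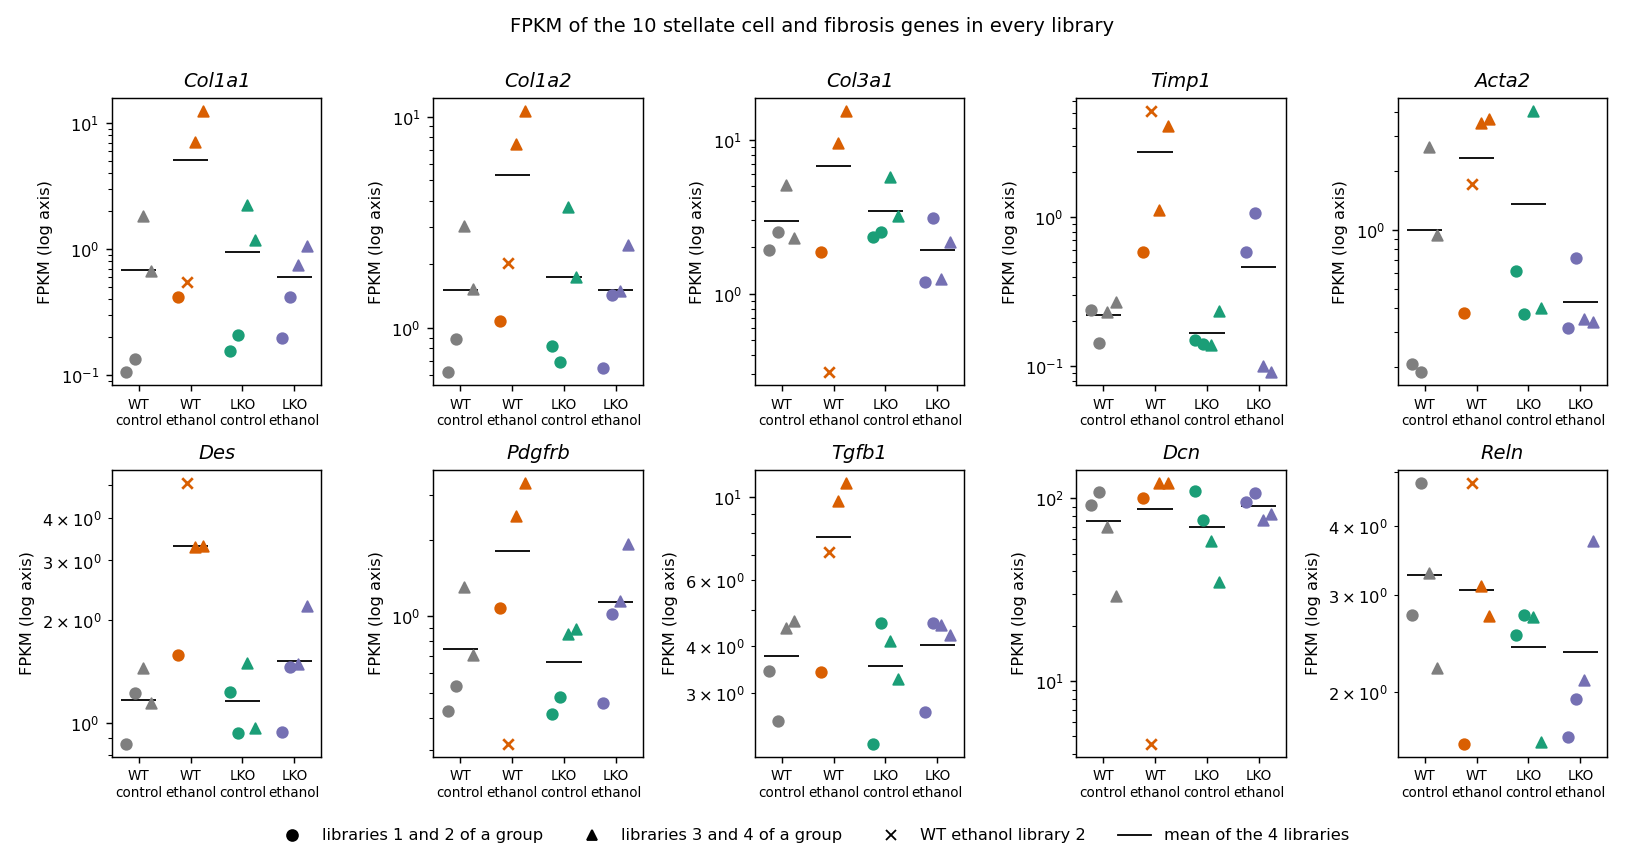
FPKM of each gene (log axis) in the 16 libraries by group, with circles for libraries 1 and 2, triangles for libraries 3 and 4, a cross for WT ethanol library 2 and a bar for the mean of 4. The triangles of the WT ethanol group are the highest points for Col1a1, Col1a2, Col3a1, Pdgfrb, Tgfb1 and Dcn, and the cross is the lowest for Col3a1, Pdgfrb and Dcn.

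In WT mice the ethanol diet was accompanied by higher Des, and by higher Timp1 with the limit that Timp1 entered the test only through its WT ethanol libraries. These were the only 2 members past an adjusted p of 0.05 (limma, Benjamini-Hochberg over all 11298 genes), and 4.18% of all genes tested passed it in this comparison, 2.58% in the higher direction. Without the filter on low values neither passed (adjusted p = 0.0737 for Timp1 and 0.0681 for Des). The collagens, Acta2, Pdgfrb and Tgfb1 had higher means on ethanol in WT but did not pass. The effect sizes that follow are differences of mean log2(FPKM + 1), which understate the change of genes at low level. In whole liver RNA, more cells of a type and more RNA per cell cannot be told apart.

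Timp1 (chrX:20870166-20874735) had 0.238, 0.142, 0.232 and 0.272 FPKM in the WT control libraries and 0.582, 5.15, 1.12 and 4.09 FPKM in the WT ethanol libraries. All 4 ethanol libraries lay above all 4 controls. The log2 difference was 1.39 with an SE of 0.334 and a limma adjusted p of 0.0268, and the mean rose 12.4-fold, from 0.221 ± 0.0552 to 2.74 ± 2.23 FPKM (SD, n = 4 each). Since Timp1 passed the filter only because it was high in this group, the test is not independent of that choice, and over all genes above 0 in any library the same difference had an adjusted p of 0.0737. The control values rest on 3 to 5 reads a library. WT ethanol library 2 held the highest value, and without it the difference was 1.08 with an adjusted p of 0.0376.

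Timp1 in LKO liver was at 0.149, 0.141, 0.140 and 0.237 FPKM on the control diet. On ethanol the LKO values were 0.581, 1.07, 0.101 and 0.0914 FPKM. LKO ethanol libraries 1 and 2 were above, and libraries 3 and 4 below, every LKO control, so the groups overlapped. The difference was 0.27 with a limma adjusted p of 0.939.

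Des (chr1:75360329-75368579) had 0.866, 1.22, 1.45 and 1.14 FPKM in WT control liver and 1.58, 5.08, 3.29 and 3.32 FPKM in WT ethanol liver. Here too the groups did not overlap. Desmin transcript rose by a log2 difference of 0.94 (SE 0.228, limma adjusted p = 0.0296), or 2.84-fold in mean FPKM. Des and Timp1 were the 2 members whose WT groups were apart in the higher direction, which held for 5.62% of all genes tested, and Timp1 counts here only through the group that let it pass the filter. Without WT ethanol library 2, again the library with the highest value, the Des difference was 0.75 with an adjusted p of 0.0324.

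In LKO liver Des was at 1.23, 0.934, 1.49 and 0.966 FPKM on the control diet and at 0.940, 1.46, 1.49 and 2.20 FPKM on ethanol. These groups overlapped, with 1 ethanol library above all controls. The difference was 0.21 with an adjusted p of 0.921. An unnamed opposite-strand gene model, Gm15179, overlaps 5.86% of the exon bases of Des, and whether the counting used strand is not given in the sources used here.

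Both calls were lost under some settings. The Timp1 call was lost when any 1 of the 4 WT control libraries or WT ethanol library 4 was left out, with an adjusted p of at most 0.0798. That of Des was lost without WT control library 1, 2 or 4 or WT ethanol library 3 or 4, with an adjusted p of at most 0.0998. On the whole reads recovered from the FPKM steps, limma with voom weights gave an adjusted p of 0.0628 for Timp1 and 0.0557 for Des. Des also missed the threshold with median-of-ratios scaling (adjusted p = 0.0537) and with equal sums (adjusted p = 0.0661).

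The fibrillar collagens were highest in WT ethanol libraries 3 and 4. Col1a1 (chr11:94936224-94953042) had 0.106, 0.134, 1.83 and 0.672 FPKM in WT control liver and 0.416, 0.546, 7.01 and 12.4 FPKM in WT ethanol liver. The difference of 1.33 (SE 0.588) had an adjusted p of 0.222, and the groups overlapped because ethanol libraries 1 and 2 lay below control libraries 3 and 4. Within the WT ethanol group the highest value was 29.8 times the lowest.

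Col1a2 (chr6:4504814-4541544) had 0.618, 0.886, 3.06 and 1.53 FPKM in WT control liver and 1.08, 2.02, 7.47 and 10.6 FPKM in WT ethanol liver. Again libraries 3 and 4 carried the high values in both groups. The difference was 1.08 (SE 0.479, adjusted p = 0.223). Col3a1 (chr1:45311538-45349706) had 1.91, 2.51, 5.08 and 2.31 FPKM in WT control liver and 1.86, 0.309, 9.53 and 15.4 FPKM in WT ethanol liver. The WT ethanol group thus held both the lowest and the highest Col3a1 values of the series. Its difference was 0.41 (SE 0.569, adjusted p = 0.729), and 1.06 (adjusted p = 0.158) without WT ethanol library 2.

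In LKO liver the mean of each collagen was lower on ethanol than on the control diet, and no difference passed the test. Col1a1 was at 0.156, 0.210, 2.23 and 1.19 FPKM on the control diet and 0.197, 0.416, 0.744 and 1.07 FPKM on ethanol. Col1a2 was at 0.822, 0.692, 3.75 and 1.74 FPKM on the control diet and 0.646, 1.44, 1.5 and 2.48 FPKM on ethanol. The highest LKO value of each gene came from control library 3, and the groups overlapped. For Col3a1 the LKO control libraries held 2.33, 2.51, 5.74 and 3.21 FPKM and the LKO ethanol libraries 1.19, 3.10, 1.25 and 2.18 FPKM. The 3 differences were -0.17 for Col1a1, -0.05 for Col1a2 and -0.59 for Col3a1, with adjusted p values from 0.894 to 1.

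Acta2 (chr19:34241090-34255590) had 0.206, 0.188, 2.65 and 0.943 FPKM in WT control liver and 0.375, 1.70, 3.49 and 3.66 FPKM in WT ethanol liver. In the LKO groups it was at 0.617, 0.374, 4.02 and 0.399 FPKM on the control diet and 0.314, 0.719, 0.350 and 0.34 FPKM on ethanol. The highest value of all 16 was that of LKO control library 3, no LKO ethanol library was high, and the groups overlapped in both genotypes. The ethanol difference was 0.73 in WT (SE 0.447, adjusted p = 0.387) and -0.48 in LKO (adjusted p = 0.882). Of 6 vascular smooth muscle markers, 4 (Cnn1, Actg2, Lmod1 and Myocd) had a median under 0.1 FPKM and none was at 0 in every library. The summed level of the 6 was 3.04 to 6.52 FPKM in WT control, 4.25 to 16.4 in WT ethanol, 2.5 to 8.30 in LKO control and 3.74 to 9.20 in LKO ethanol liver, and its part in the Acta2 and Des values was not tested.

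Pdgfrb, the receptor, had 0.425, 0.533, 1.31 and 0.708 FPKM in WT control liver and 1.08, 0.317, 2.48 and 3.33 FPKM in WT ethanol liver. Ethanol libraries 3 and 4 exceeded every control and library 1 exceeded 3 of 4, but library 2 was the lowest of all 16. The difference was 0.57 (SE 0.307, adjusted p = 0.325) with all libraries and 0.88 (adjusted p = 0.0462) without WT ethanol library 2. In LKO liver Pdgfrb was at 0.413, 0.483, 0.849 and 0.893 FPKM on the control diet and 0.456, 1.02, 1.15 and 1.91 FPKM on ethanol. There, 3 of 4 ethanol libraries exceeded every control, with a difference of 0.33 and an adjusted p of 0.881.

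Tgfb1 (chr7:25687002-25705077), the ligand, had 3.45, 2.52, 4.47 and 4.65 FPKM in WT control liver and 3.43, 7.11, 9.75 and 10.9 FPKM in WT ethanol liver. The last 3 of these exceeded every control, while ethanol library 1 lay among the controls. The difference of 0.81 (SE 0.293) had an adjusted p of 0.129, and without WT ethanol library 1 it was 1.11 with an adjusted p of 0.0167. In LKO liver Tgfb1 was at 2.20, 4.61, 4.12 and 3.26 FPKM on the control diet and 2.68, 4.62, 4.55 and 4.29 FPKM on ethanol, which overlapped almost fully, with a difference of 0.16 and an adjusted p of 0.985.

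Dcn (chr10:97479609-97518143) was the most abundant member and the one most affected by WT ethanol library 2. Its WT control values were 91.6, 108.3, 69.99 and 29.4 FPKM, and its WT ethanol values were 101.1, 4.56, 121.3 and 121.6 FPKM. The value of 4.56 FPKM rests on 85 reads, against at least 1155 reads in every other library. The WT ethanol difference was -0.34 (SE 0.752, adjusted p = 0.839) with that library and 0.75 (adjusted p = 0.237) without it. In LKO liver Dcn was at 110.4, 76.5, 58.6 and 34.7 FPKM on the control diet and at 96.1, 107.0, 76.4 and 82.4 FPKM on ethanol. The LKO groups overlapped, with a difference of 0.47 (95% interval -1.12 to 2.06).

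Reln (chr5:21884454-22344702) had group means from 2.37 to 3.26 FPKM. It had 2.76, 4.78, 3.29 and 2.21 FPKM in WT control liver and 1.61, 4.78, 3.11 and 2.74 FPKM in WT ethanol liver. In LKO liver it was at 2.53, 2.76, 2.73 and 1.62 FPKM on the control diet and 1.66, 1.94, 2.11 and 3.76 FPKM on ethanol. All 4 groups overlapped one another. Gene models share 1.04% of the exon bases of Reln (Gm10475, opposite strand) and 1.44% of those of Col3a1 (Gm47302, same strand). The ethanol difference was -0.09 in WT (95% interval -0.64 to 0.458) and -0.04 in LKO (95% interval -0.592 to 0.507), so changes within these bounds were not detectable here.

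Over the members as a group, 8 of 10 had a positive ethanol difference in WT, with a median of 0.77, against a median of -0.02 over all genes tested. At an unadjusted p under 0.05, 5 of 10 passed in WT, against 19.7% of all genes. These counts include Timp1 and Acta2, which passed the filter only through the WT ethanol group. Of the other 8 members, 6 were positive, 4 passed unadjusted and 1 was called, with a median of 0.69. In LKO 5 of 10 were positive and the median was 0.06, equal to that of all genes to 2 decimals. In LKO liver no member passed limma's adjusted test, where 0.425% of all genes did. None passed at an unadjusted p under 0.05, as 9.19% of all genes did, and none was called with voom, which called 49 of all genes. The WT and LKO comparisons use separate control libraries.

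On the control diet no member was called between the genotypes. None passed limma's adjusted test, which 0.00885% of all genes passed, or at an unadjusted p under 0.05, which 3.45% passed. Voom called none of the members either, and 1 of all genes. The differences ran from -0.30 for Reln to 0.18 for Col1a1, and the 95% intervals reached from -1.65 to 1.52 for Dcn and from -0.491 to 0.473 for Des, so that a change of 1 on the log2 scale would lie outside the interval for Des and inside that for Dcn.

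On the ethanol diet 9 of 10 members had lower means in LKO than in WT, Dcn being the exception. The median was -0.78, against -0.03 over all genes. No member passed the adjusted test (limma, 0.0797% of all genes passed) or was called with voom, which called 5 of all genes. At an unadjusted p under 0.05, 6 of 10 passed, against 11.9% of all genes. These 6 were Timp1 (-1.18, SE 0.334, adjusted p = 0.214), Des (-0.73, SE 0.228, adjusted p = 0.253), Tgfb1 (-0.73, adjusted p = 0.350), Acta2 (-1.06, adjusted p = 0.366), Col1a1 (-1.32, adjusted p = 0.397) and Col1a2 (-1.04, adjusted p = 0.410). Timp1 and Acta2 had passed the filter only through the WT ethanol group in which they were high, so their place among the 6 supports nothing, and without the filter their adjusted p values were 0.321 and 0.481. The LKO and WT ethanol groups overlapped for all 10 members.

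Leaving out 1 WT ethanol library moved that comparison. Without library 1, Timp1 (-1.52, adjusted p = 0.0172), Des (-0.96, adjusted p = 0.0216) and Tgfb1 (-1.03, adjusted p = 0.0416) were called lower in LKO, as 387 of all 11298 genes were called in either direction, against 9 with all libraries. Without library 2, none was called, 8 passed at an unadjusted p under 0.05 where 17.1% of all genes did, and Dcn turned to -0.35 with an adjusted p of 0.619.

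**Figure D2:**
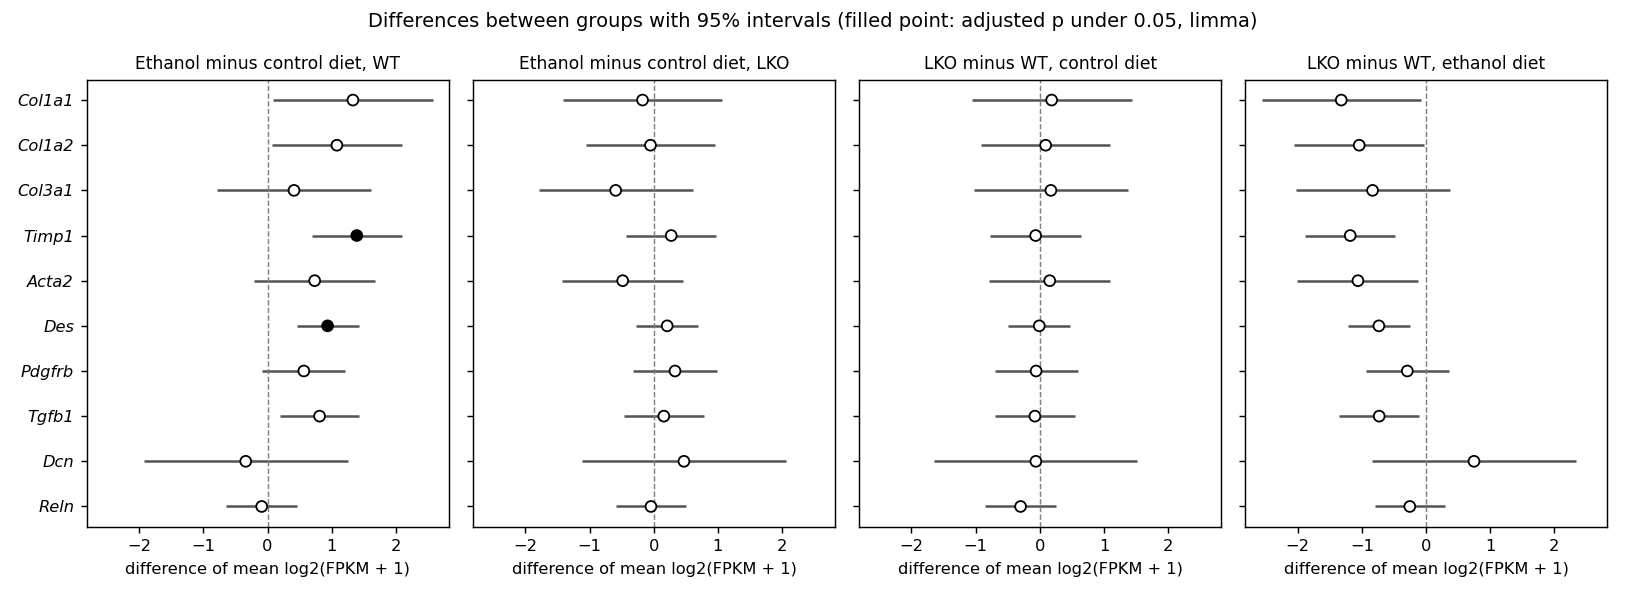
Differences of mean log2(FPKM + 1) between groups for each gene in 4 comparisons, with 95% intervals from limma over 16 libraries, and filled points for an adjusted p under 0.05. Timp1 (1.39) and Des (0.94) are the only filled points, both for ethanol in WT, and the widest intervals belong to Dcn.

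Whether ethanol acted differently in LKO and WT was tested by the interaction term. It passed the adjusted threshold for no member, the lowest adjusted p being 0.927, and for 0% of all genes. At an unadjusted p under 0.05 it passed for Timp1 (-1.12, SE 0.472) and Des (-0.73, SE 0.323), against 3.20% of all genes, and voom called no member and 0 of all genes. With array weights, which called 506 of all genes, the interaction passed for Col1a1 (-2.34, adjusted p = 0.0254) and Col3a1 (-2.09, adjusted p = 0.0164). Under equal weights a difference in response between genotypes was not shown for any member. Averaged over both genotypes, ethanol gave higher Timp1 (0.83, SE 0.236, limma adjusted p = 0.0388) and Des (0.57, SE 0.162, adjusted p = 0.0379), the only 2 members called where 7.78% of all genes were. When each of the 16 libraries was left out in turn, the averaged call held for Timp1 in 5 fits (adjusted p from 0.00594 to 0.0944) and for Des in 4 (adjusted p from 0.00569 to 0.0846). Neither was called with voom (adjusted p = 0.0919 for Timp1 and 0.0567 for Des), with median-of-ratios scaling (0.0583 and 0.0768) or without the filter (0.106 and 0.0850), and Des was not called with equal sums (0.0739). For Timp1 the averaged and the interaction values both rest on the WT ethanol libraries through which it passed the filter. Another member, Tgfb1, passed only at an unadjusted p under 0.05, which made 3 of 10 against 21.6% of all genes. Without WT ethanol library 2, Pdgfrb joined them, and 20.5% of all genes were called.

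Several members varied widely between the libraries of a group. In every one of the 4 groups libraries 3 and 4 lay above libraries 1 and 2, without overlap, for Col1a1, Col1a2 and Pdgfrb, with WT ethanol library 2 left out. This held for 3 of 10 members and for 10.5% of all genes tested, and the split was itself found from these data. The mean difference over the groups was 1.39 for Col1a1, 1.18 for Col1a2 and 0.56 for Pdgfrb. Dcn went the other way in 3 of 4 groups, by -1.11 in WT control, -1.01 in LKO control and -0.35 in LKO ethanol liver, and by 0.26 in WT ethanol liver. Beside this, the summed level of 8 Kupffer cell and macrophage markers had a median of 287 FPKM on the side of libraries 1 and 2 and 122 FPKM on the other side. In the same order the medians were 95.7 and 57.1 FPKM for sinusoidal endothelial markers, 72400 and 56000 FPKM for hepatocyte markers, 136 and 116 FPKM for stellate cell markers, 5.94 and 2.26 FPKM for neutrophil markers and 2.62 and 1.63 FPKM for lymphocyte markers. Vascular smooth muscle markers went the other way, with 4.4 and 5.72 FPKM, while portal fibroblast and mesothelial markers had 29.2 and 29.4 FPKM and cholangiocyte markers 20.4 and 19.3 FPKM. Single genes made up much of some sums, so these are not levels of whole marker sets. By median over all libraries they were Dcn (87.0 FPKM, stellate), Gas6 (23.7 FPKM, portal fibroblast), Tagln (4.48 FPKM, smooth muscle), Spp1 (18.4 FPKM, cholangiocyte) and Alb (46200 FPKM, hepatocyte). The mitochondrial share of reads was higher in libraries 1 and 2 than in libraries 3 and 4 of every group, for example 6.66% and 5.57% against 4.05% and 4.06% in WT control liver. The part of these measures in the members' values was not tested.

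Within the side of libraries 3 and 4, the WT ethanol means stood above the control means for all 10 members. Col1a1 went from a mean of 1.25 to 9.70 FPKM, a log2 difference of 2.25 between 2 libraries and 2. Col1a2 differed by 1.63, Col3a1 by 1.55, Dcn by 1.4, Timp1 by 1.39, Tgfb1 by 1.02, Pdgfrb by 0.97, Des by 0.91, Acta2 by 0.78 and Reln by 0.08. On the other side, where WT ethanol library 1 stood alone against 2 controls, the differences were lower for all 10. They were 0.34 for Col1a1, 0.25 for Col1a2, -0.16 for Col3a1, 0.41 for Timp1 and 0.34 for Des, and Reln had -0.83.

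In LKO liver the side of libraries 3 and 4 had lower mean collagens and Acta2 on ethanol. Col3a1 differed by -0.99, Acta2 by -0.98, Col1a1 by -0.49 and Col1a2 by -0.29, while Dcn differed by 0.80. On the other side Timp1 had 0.66 and Col1a1 0.14. With only 1 or 2 libraries on each side of a group these are values without a test.

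A fit with a term for the split and without WT ethanol library 2 called 5 members higher with ethanol in WT, while calling 19.7% of all genes. They were Pdgfrb (0.79, adjusted p = 0.00788), Col1a1 (1.56, adjusted p = 0.0117), Des (0.70, adjusted p = 0.0120), Col1a2 (1.14, adjusted p = 0.0237) and Timp1 (1.07, adjusted p = 0.0299), the last with the limit on its filter given above. Without that library alone, the count was 3, at 9.48% of all genes. In LKO the fit with the split term called none of the 10, where it called 1206 of all 11298 genes. The interaction in that fit called 0 members and 0 of all genes, so a difference between the genotypes was not shown.

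**Figure D3:**
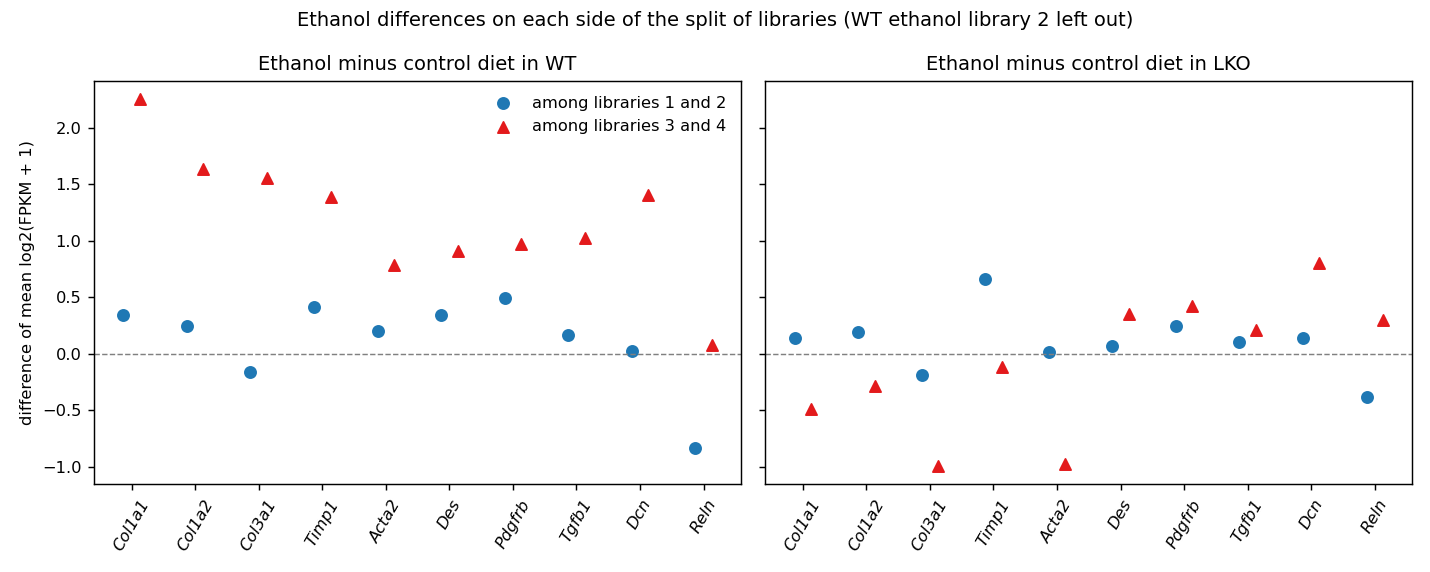
Ethanol minus control difference of mean log2(FPKM + 1) for each gene in WT (left) and LKO (right), computed among libraries 1 and 2 (circles) and among libraries 3 and 4 (triangles), without WT ethanol library 2. In WT the triangles lie above the circles for all 10 genes, and in LKO those of Col3a1 and Acta2 are the lowest.

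The members' deviations from their group means were compared over the 15 libraries without WT ethanol library 2, as a description, since all libraries share the split just given. The closest pair was Col1a1 and Col1a2 (Spearman rho 0.961, Pearson r 0.982), followed by Col1a2 and Pdgfrb (rho 0.900), Col1a1 and Pdgfrb (rho 0.886) and Col1a2 and Col3a1 (rho 0.879). Acta2 followed them, with rho 0.843 for Col1a1. The Col1a2 and Col3a1 promoter windows printed above share none of the motifs searched, and no window was available for Col1a1. Shared regulation was not tested. Des had rho 0.782 for Pdgfrb, 0.743 for Col3a1 and 0.729 for Col1a1. Dcn had rho -0.414 for Pdgfrb and -0.407 for Col1a1. Of 45 pairs, 36 were above 0, and the median rho was 0.425. With WT ethanol library 2 included, Dcn had rho 0.0676 for Pdgfrb and 0.00882 for Col1a1, the median of the 45 pairs was 0.218 with 35 above 0, and Col1a1 and Col1a2 remained the closest pair (rho 0.959).

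**Figure D4:**
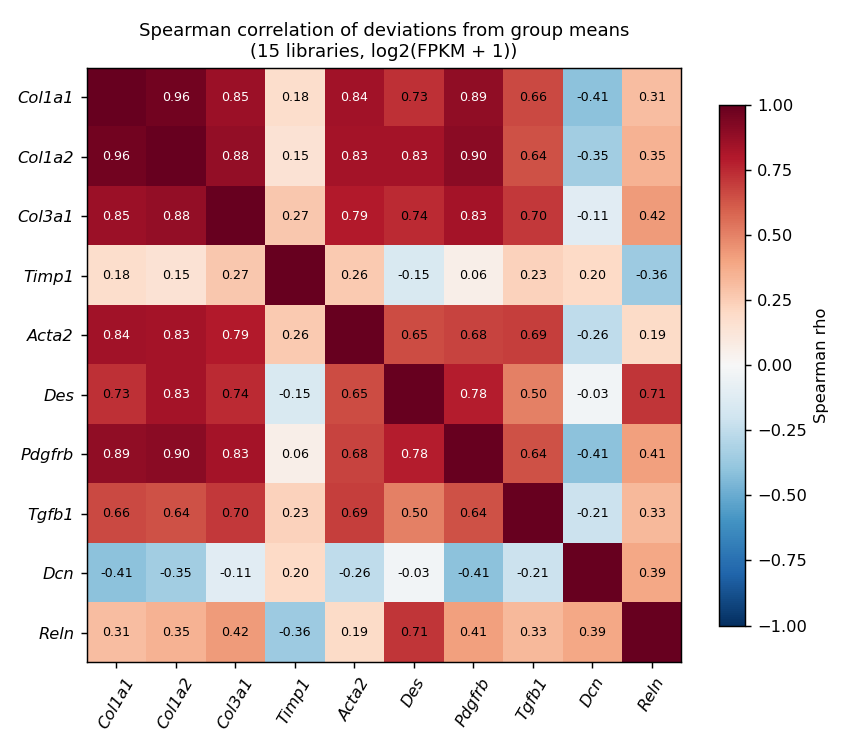
Spearman correlation between the 10 genes of deviations from group means of log2(FPKM + 1) over 15 libraries, from -1 (blue) to 1 (red). The highest value is 0.96, for Col1a1 and Col1a2, whose rows are also high for Col3a1, Acta2, Des and Pdgfrb, and Dcn has its lowest values, both -0.41, with Pdgfrb and Col1a1.

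The protein-coding genes most like each member by this measure over the same 15 libraries differed by member. Those of Des were Prelp (rho 0.936), a matrix proteoglycan, Arvcf (rho 0.929) and Pcolce (rho 0.925), which enhances procollagen processing. Those of Dcn were Postn (rho 0.954), a matrix protein, Emcn (rho 0.954), an endothelial sialomucin, and Anxa1 (rho 0.950). Reln was closest to Ehd3 (rho 0.907), Col14a1 (rho 0.896) and Mmp19 (rho 0.893). For Col1a1 they were Sfpq (rho 0.979), Efcab14 (rho 0.971) and Lamb2 (rho 0.968), for Col1a2 Borcs8 (rho 0.979), Sfpq and Col6a2 (rho 0.971), and for Col3a1 Eloa (rho 0.979). Pdgfrb was closest to Ppp1r7 (rho 0.979), Tgfb1 to Cracr2b (rho 0.929), Acta2 to Usp6nl (rho 0.964) and Timp1 to Pgam5 (rho 0.893). Over all 16 libraries the closest genes were others for most members, among them Mef2d for Col1a1 (rho 0.982), Zbtb2 for Col3a1 (rho 0.971), Strbp for Timp1 (rho 0.903), Jag1 for Acta2 (rho 0.906), Timp2 for Des (rho 0.909), Tmbim6 for Pdgfrb (rho 0.985), Pgk1 for Dcn (rho 0.968) and Car2 for Reln (rho 0.885), while Borcs8 for Col1a2 (rho 0.976) and Cracr2b for Tgfb1 (rho 0.950) were closest in both.

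Of 134 other genes in 8 lists of the same pathways, 87 passed the filter. In WT liver ethanol raised 9 and lowered 2 of them (limma adjusted p under 0.05), and 33 passed at an unadjusted p under 0.05, where 4.18% and 19.7% of all genes tested did. Voom called 6 of the 87 in WT, and 340 of all 11298 genes. Without the WT ethanol group 6 of the 87 would have failed the filter, 2 of the 9 raised genes among them, and those 2 calls are not independent of the filter. In LKO liver none was called (0.425% of all genes), 13 passed unadjusted (9.19% of all genes) and 1 was called with voom (49 of all genes). Neither genotype comparison nor the interaction called any of the 87, with 4 (control diet), 14 (ethanol diet) and 6 (interaction) at an unadjusted p under 0.05 and 0 with voom. Of all genes, 3.45%, 11.9% and 3.20% passed unadjusted in these 3 comparisons, and 1, 5 and 0 were called with voom. Without WT ethanol library 2, the WT counts were 21 higher and 1 lower, and the LKO counts 6 higher (Nid1, Adamts1, Tgfbr2, Vldlr, Nt5e and Ednrb) and 1 lower (Col27a1), where 1071 and 409 of all 11298 genes were called in WT and LKO. In that setting 1 of the 87, Serpine2, was called lower in LKO than in WT on the control diet, where 5 of all genes were called, and it is another gene that passed the filter only through the WT ethanol group.

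Among 8 tested collagens beside the members, Col27a1, a minor fibrillar collagen, was the only one called, and it was lower. It went from 13.6 ± 3.06 to 2.05 ± 1.07 FPKM in WT and from 9.99 ± 4.02 to 3.36 ± 2.84 FPKM in LKO (SD, n = 4 each), a difference averaged over genotypes of -1.88 with a limma adjusted p of 0.000725. The basement membrane collagen Col4a1 differed by 1.29 averaged over genotypes (adjusted p = 0.0565), and without WT ethanol library 2 it and Col4a2 were called higher in WT. Of 16 matrix proteins and collagen-processing enzymes, Sparc, a collagen-binding matricellular protein, rose in WT from 13.7 ± 3.50 to 39.8 ± 16.1 FPKM (1.4, adjusted p = 0.0218), and no other passed. Without WT ethanol library 2, Nid1, P4ha2 and Serpinh1 were called in WT as well. In LKO Sparc differed by 0.14 (limma adjusted p = 0.993).

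Among the genes of matrix breakdown, Adamts1 rose in WT, Mmp12 was called higher as a gene that passed the filter only through the WT ethanol group, and none fell. Mmp12, the macrophage elastase, went from 0.201 ± 0.143 to 3.32 ± 2.01 FPKM (1.74, adjusted p = 0.0135). The protease Adamts1 went from 1.67 ± 0.558 to 5.51 ± 2.18 FPKM, and its difference averaged over genotypes was 1.26 (adjusted p = 0.00291). In LKO liver the mean of Mmp12 went from 0.131 to 0.983 FPKM (0.57, limma adjusted p = 0.723). The LKO mean of Adamts1 went from 1.23 to 5.07 FPKM (1.27, limma adjusted p = 0.102), against a difference of 1.24 in WT.

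Of 19 genes of the TGF-beta pathway, only Ccn2, which encodes connective tissue growth factor, was called higher in WT. Its mean was 1.55 ± 0.607 FPKM on the control diet and 3.21 ± 0.577 FPKM on ethanol in WT, and 1.97 ± 0.468 and 1.44 ± 0.239 FPKM in LKO. Its LKO minus WT difference on ethanol was -0.78, with an adjusted p of 0.172. The receptor gene Tgfbr2 was called in the average over genotypes (1.24, adjusted p = 0.0115). Of the PDGF genes, Pdgfa, a ligand, rose in WT, from 1.88 ± 0.608 to 11.8 ± 10 FPKM, and Pdgfra, the alpha receptor, was called in the average over genotypes (0.67, adjusted p = 0.0358). In LKO Pdgfa differed by 0.79 (limma adjusted p = 0.616). The reelin receptor gene Vldlr rose in WT from 1.09 ± 0.243 to 3.49 ± 1.94 FPKM, and the average over genotypes was 1.03 (adjusted p = 0.00300). In LKO Vldlr went from 0.337 ± 0.144 to 1.83 ± 0.7 FPKM. Its difference was 1.06 in LKO (limma adjusted p = 0.101) and 0.999 in WT. With WT ethanol library 2 left out, Tgfbr2 and Pdgfra were also called higher in WT.

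Of 9 filament and contractile genes, Cnn2 and Myl9 rose in WT, Myl9, a myosin light chain, from 1.31 ± 0.568 to 4.19 ± 0.837 FPKM (1.18, adjusted p = 0.0258). With WT ethanol library 2 left out, Tagln, Tpm1 and Cald1 joined them. In LKO Myl9 differed by 0.27 (limma adjusted p = 0.917) and Cnn2 by 0.15 (adjusted p = 0.972). Vim, which encodes vimentin, differed by -1.32 between LKO and WT on ethanol (adjusted p = 0.172). Of 21 other stellate cell markers, 1 was called lower in WT, Angptl6, from 7.90 ± 2.13 to 3.13 ± 2.51 FPKM, and none higher. In LKO Angptl6 went from 8.83 ± 2.65 to 4.25 ± 1.11 FPKM (-0.89, limma adjusted p = 0.375). Without WT ethanol library 2, Angptl6 was not called in WT and Nt5e and Ednrb were called higher. Over all 16 libraries the median difference of the 21 markers in WT was -0.11, against 0.96 for the contractile genes and -0.02 for all genes. Without WT ethanol library 2 the median of all genes was 0.166, and the list medians were not recomputed.

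**Figure D5:**
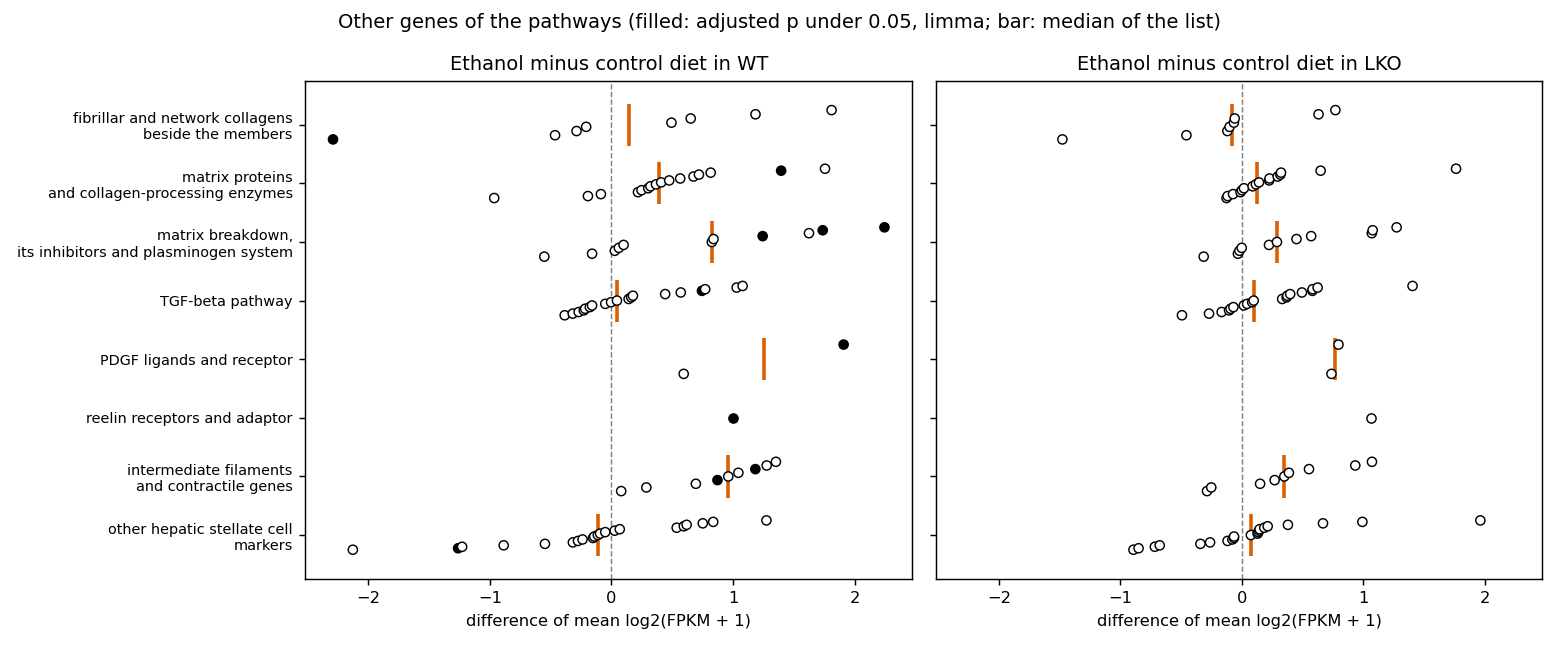
Ethanol minus control difference of mean log2(FPKM + 1) for the 87 tested pathway genes, 1 point a gene, by list, in WT (left) and LKO (right), with filled points for a limma adjusted p under 0.05 and a bar at the median of each list. The WT panel has 11 filled points and the LKO panel none.

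All 11 stellate cell markers, 4 of them members, were in the table, and none was at 0 in every library. Their summed level was 58.8 to 169 FPKM in WT control, 24.4 to 201 in WT ethanol, 67.6 to 168 in LKO control and 114 to 164 in LKO ethanol liver. The lowest sum, 24.4 FPKM, was that of WT ethanol library 2, where Dcn, the marker with the highest median of the 11, was at 4.56 FPKM. In that library Ngfr was at 0, Colec11 at 0.366, Lrat at 1.06 and Rgs5 at 2.86 FPKM, each its lowest of all 16, whereas Cygb (3.21 FPKM) and Hand2 (1.95 FPKM) were near their medians of 3.13 and 2.03 FPKM, Des was at its highest, and Reln was at 4.78 FPKM (median 2.74 FPKM). The same library had the highest Thy1 (15.3 FPKM), Wt1 (6.25 FPKM) and Gpm6a (5.12 FPKM), markers of portal fibroblasts and mesothelial cells whose medians over all libraries were 0.693, 0.104 and 0.352 FPKM. Of the other 7 genes of that list, Gas6 was at its lowest there (12.7 FPKM, median 23.7 FPKM) and Entpd2, Upk1b and Upk3b were at 0, while Eln (2 FPKM, median 0.517 FPKM) and Msln (0.909 FPKM, median 0.349 FPKM) were above and Fbln2 (0.296 FPKM, median 0.420 FPKM) below their medians. The summed level of 6 cholangiocyte markers was 75.0 FPKM in that library, of which Spp1 alone gave 66.4 FPKM (median 18.4 FPKM). Epcam (4.26 FPKM, median 0.704 FPKM) and Krt7 (1.26 FPKM, median 0.194 FPKM) were also at their highest there, Krt19 was at 0.706 FPKM (median 0.589 FPKM) and Cftr was at 0. It also held the highest Timp1 and Des values. Of the 10 portal fibroblast and mesothelial markers, none was at 0 in every library, and their summed level was 26.3 to 49.3 FPKM in WT control, 28.5 to 42.6 in WT ethanol, 22.5 to 44.3 in LKO control and 18.5 to 24.5 in LKO ethanol liver. The part of these markers in the Timp1 and Des results was not tested, and both calls held without that library, as given above.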

How the data were processed

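Gene expression was measured by RNA sequencing of liver RNA in 16 libraries, 4 in each group. The deposited table holds FPKM for 35275 Ensembl genes, made by the authors. Per the submitters' processing notes, the tools were fastp, STAR 2.6.1, HTSeq and DESeq2, with the build mm10. Their roles and settings, the annotation and the strandedness are not given in the sources used here. Symbols were taken from GENCODE M21 (34490 identifiers matched), and promoters from RefSeq. No per-sample column was unmapped (0).

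Genes with at least 1 FPKM in at least 4 libraries were kept. The limma package (3.58.1, R 4.3.3) was run on log2(FPKM + 1), with 1 mean per group, no covariate, empirical Bayes with a mean trend, two-sided tests of 6 contrasts and Benjamini-Hochberg adjustment over all genes tested, called at 0.05. p-values measure only the spread between these libraries. Intervals are at 95%. The FPKM steps gave whole reads, within 0.1 read, in every library for 100% of the 20520 genes detected in 4 or more libraries; these reads served for totals and voom. The fits and the recovery were tested on simulated data. Tables were made with pandas 2.3.3 and plots with matplotlib 3.10.9.

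Named are all members, at most 3 genes of each list by smallest unadjusted p over the 6 contrasts, and 1 or more of the 3 protein-coding genes most like each member. Genes named outside that rule (Cnn2, Col4a2, Serpinh1, Serpine2, Nt5e, Tagln, Cald1 and cell type markers) were chosen after their values were seen. Of the list genes, 1 enters the counts but is not reported here by name. The members and lists were chosen with earlier results of these data known. Alternatives were 2 scalings, a pseudocount of 0.1, no filter, array weights, a term for the split without WT ethanol library 2, voom, and leaving out each of the 16 libraries.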

Additional observations from a re-analysis of the deposited data

Results flagged for a closer look

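In 3 of 40 sets of 4 libraries (10 genes in 4 groups), 1 library lay far from the others by Dixon's test of the gap over the range at the 95% level. Chance flags about 1 in 20 sets. Acta2 was at 4.02 FPKM in LKO control library 3, with the next value at 0.617 FPKM, and the same library held the highest Col1a1, Col1a2 and Col3a1 values of its group. Acta2 was also at 0.719 FPKM in LKO ethanol library 2, with the next at 0.350 FPKM. Timp1 was at 0.237 FPKM in LKO control library 4, with the next at 0.149 FPKM, a difference of 5 reads against 3.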

How the results depend on the processing

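The values limma gave for the 10 members in the 6 comparisons, 60 in all, were recomputed under 7 alternatives. Of the 420 values, 365 kept direction and call, 13 lost a call, 26 gained one and 16 changed sign. Leaving out each of 16 libraries gave 960 values, of which 871 kept both, 33 lost a call, 7 gained one and 49 changed sign. The causes were not tested.

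For ethanol in WT, 2 members were called, against 1 with median-of-ratios scaling, 1 with equal sums, 0 with no filter, 0 with voom, 8 with array weights, 5 with the split term without WT ethanol library 2, and 0 to 3 with 1 library left out. For LKO against WT on ethanol the count of 0 became 8 with array weights and 0 to 3 with 1 library left out. For the interaction the count of 0 became 2 with array weights, Col1a1 and Col3a1. For ethanol averaged over genotypes, the count of 2 became 0 with median-of-ratios scaling, 1 with equal sums, 0 with no filter, 0 with voom, 6 with array weights, 5 with the split term, and 0 to 3 with 1 library left out. The array weights were estimated from the same libraries and were 0.0418 for WT ethanol library 2 and 5 for WT ethanol library 3. For ethanol in LKO and for LKO against WT on the control diet, no alternative called a member. Over all genes, ethanol in LKO had 48 calls, against 1206 with the split term, 869 with array weights and 6 to 409 with 1 library left out. For LKO against WT on the control diet the count of 1 became 9 with the split term, 260 with array weights and 1 to 5 with 1 library left out. Over all genes, 472 were called with ethanol in WT, against 732 with median-of-ratios scaling, 253 with equal sums, 283 with no filter (of all genes above 0 in any library), 340 with voom, 4334 with array weights, 2229 with the split term and 146 to 1071 with 1 library left out. Array weights called 3465 genes between the genotypes on ethanol (9 without weights), 506 in the interaction (0 without) and 4147 in the average (879 without), where the split term called 3684.

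Signs changed with array weights for ethanol in WT of Dcn (0.687), ethanol in LKO of Col1a1 (0.122) and Col1a2 (0.206), LKO against WT on the control diet of Col1a2 (-0.0612) and Tgfb1 (0.0117), LKO against WT on ethanol of Dcn (-0.443), the interaction of Dcn (-0.440) and the average of Col3a1 (0.495). With the split term they changed for Dcn in WT (0.859), on ethanol between genotypes (-0.450) and in the interaction (-0.388), and for Col3a1 in the average (0.179). With median-of-ratios scaling LKO against WT on the control diet changed for Des (0.0698), Tgfb1 (0.0381) and Dcn (0.0853), and the average for Dcn (-0.00931). That scaling moved the median of all genes between LKO and WT from -0.103 to 0.0127 on the control diet and from -0.031 to 0.079 on ethanol, and equal sums moved that of the interaction from 0.0894 to 0.198.

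With 1 library left out, signs changed within these ranges. For ethanol in WT they were -0.155 to 1.06 for Col3a1, -0.734 to 0.754 for Dcn and -0.280 to 0.102 for Reln. For ethanol in LKO they were -0.380 to 0.115 for Col1a1, -0.241 to 0.255 for Col1a2, -0.00071 to 0.301 for Tgfb1 and -0.222 to 0.058 for Reln. For LKO against WT on the control diet they were -0.104 to 0.471 for Col1a1, -0.215 to 0.350 for Col1a2, -0.0477 to 0.4 for Col3a1, -0.291 to 0.498 for Acta2, -0.0815 to 0.0519 for Des, -0.147 to 0.0855 for Pdgfrb, -0.214 to 0.0816 for Tgfb1 and -0.452 to 0.229 for Dcn. On ethanol the range was -0.345 to 1.14 for Dcn. For the interaction they were -0.548 to 0.0246 for Pdgfrb, -0.283 to 1.20 for Dcn and -0.145 to 0.237 for Reln. For the average they were -0.373 to 0.234 for Col3a1, -0.131 to 0.612 for Dcn and -0.161 to 0.0297 for Reln.

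No paired analysis was made because the labels give no replicate number shared between groups and no litter, day or batch. The sample titles carry numbers, some of them consecutive between the diets, which no label explains and which were not used to pair libraries. Timp1 and Acta2 rest on as few as 2 and 7 reads in a library, which limits what can be seen in their low groups.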
